A study of Mus musculus with 12 samples.

Results

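The genes described here carry the Nodal and activin signal across the membrane and into the nucleus: the co-receptor Tdgf1 (Cripto), the convertases Pcsk6 and Furin, the type I receptor Acvr1b, the type II receptors Acvr2a and Acvr2b, the signal transducers Smad2, Smad3 and Smad4, and the DNA-binding partner Foxh1. They were taken by gene symbol, 10 of the 43472 features in the deposited table, and all 10 were found. RNA-seq had been run on whole mouse embryos of the outbred CD1 stock at 3 stages, morula, early blastocyst and late blastocyst. At each stage the embryos carried an siRNA directed at Tdgf1 or, in the control arm, the negative control siRNA, which gives 6 groups of 2 libraries and 12 libraries in all. In every group the siRNA had been injected into the zygote together with GFP mRNA, a marker of successful injection, so the control embryos were injected embryos too. The number of embryos in each library and the place in the Tdgf1 transcript that the siRNA matches are not given in the sources used here. Nothing in the labels says that libraries of a group came from separate collections of embryos, so each p-value reflects the spread among these libraries, which may be technical.

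Nodal and its relatives are made as precursors that proprotein convertases such as Pcsk6 and Furin cut into active ligand. The ligand binds a type II receptor (Acvr2a or Acvr2b), which activates a type I receptor (Acvr1b), and Nodal needs a membrane-anchored co-receptor, Cripto or its relative Cryptic, to do so. The type I receptor phosphorylates Smad2 and Smad3, which join Smad4 and reach target genes with DNA-binding partners such as Foxh1. In the mouse embryo the pathway is best known for its roles in the epiblast and in laying down the body axis around implantation.

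Levels are given as CPM, reads of a gene scaled to a fixed total of reads assigned to genes in each library. The libraries held 10524640 to 13770264 such reads, so that 3 reads were worth 0.218 to 0.285 CPM, and the 10 genes had between 6 and 2184 reads per library. Differences are on the scale log2(value + 1) of the deposited values, where 1 unit is 3.582 CPM. This understates the change of genes near or under that level (Foxh1, Acvr1b, Smad3 and Furin at morula). All 10 genes were among the 10751 with a mean of at least 3.582 CPM that were tested with limma, with Benjamini-Hochberg adjustment over all of them and a threshold of 0.05. Both early blastocyst libraries numbered 2 stood apart, with a summed level of 11 trophectoderm markers (the outer layer of the blastocyst) of 2024 and 2227 CPM against 4564 and 4178 CPM in those numbered 1. The late blastocyst Tdgf1 siRNA library numbered 1 was the lowest of the 4 late blastocyst libraries for 8 of 11 primitive endoderm markers, such as Gata4 (7.86 CPM against 19.7 to 26.4 CPM), and the highest for 2 (Gata6 and Lrp2). Its summed level of that list was not lower (2371 to 2396 CPM in the late siRNA libraries, 2310 to 2371 CPM in controls). In whole embryos, fewer cells of a type and less RNA per cell cannot be told apart.

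Between the morula and the late blastocyst, RNA of the co-receptor Tdgf1, the convertase Pcsk6, the receptors Acvr1b and Acvr2b and the nuclear partner Foxh1 rose, while Acvr2a, Furin and the 3 Smads did not pass the test. From early to late blastocyst 6 of the 10 genes rose (Tdgf1, Pcsk6, Foxh1, Acvr2b, Acvr2a and Smad3), where 27% of all genes tested rose, and 1 fell (Smad2), where 17.7% of all genes fell. From morula to early blastocyst 3 of the 10 rose (Foxh1, Acvr2b and Acvr1b; 19.7% of all genes) and 1 fell (Acvr2a; 14% of all genes). From morula to late blastocyst 5 of the 10 rose (Pcsk6, Foxh1, Tdgf1, Acvr2b and Acvr1b; 36.6% of all genes) and none fell (24.3% of all genes). The median log2 difference of the 10 genes was 0.19, 0.55 and 0.68 in the comparisons of early blastocyst with morula, late with early blastocyst, and late blastocyst with morula. Over all genes tested the medians were 0.05, 0.09 and 0.13, and with TMM scaling they were 0.01 in each. With TMM scaling the 10 genes had medians of 0.15, 0.48 and 0.59. Stage differences are averages over both siRNA arms, 4 libraries against 4. The 5 calls between morula and late blastocyst were also made in the control libraries alone and in the Tdgf1 siRNA libraries alone. In such comparisons the difference is of 1 arm, and the spread was still estimated from all 12 libraries. The 4 and 7 calls of the shorter steps fell to 1 and 3 in the control libraries alone (Foxh1, then Tdgf1, Pcsk6 and Foxh1).

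**Figure D1:**
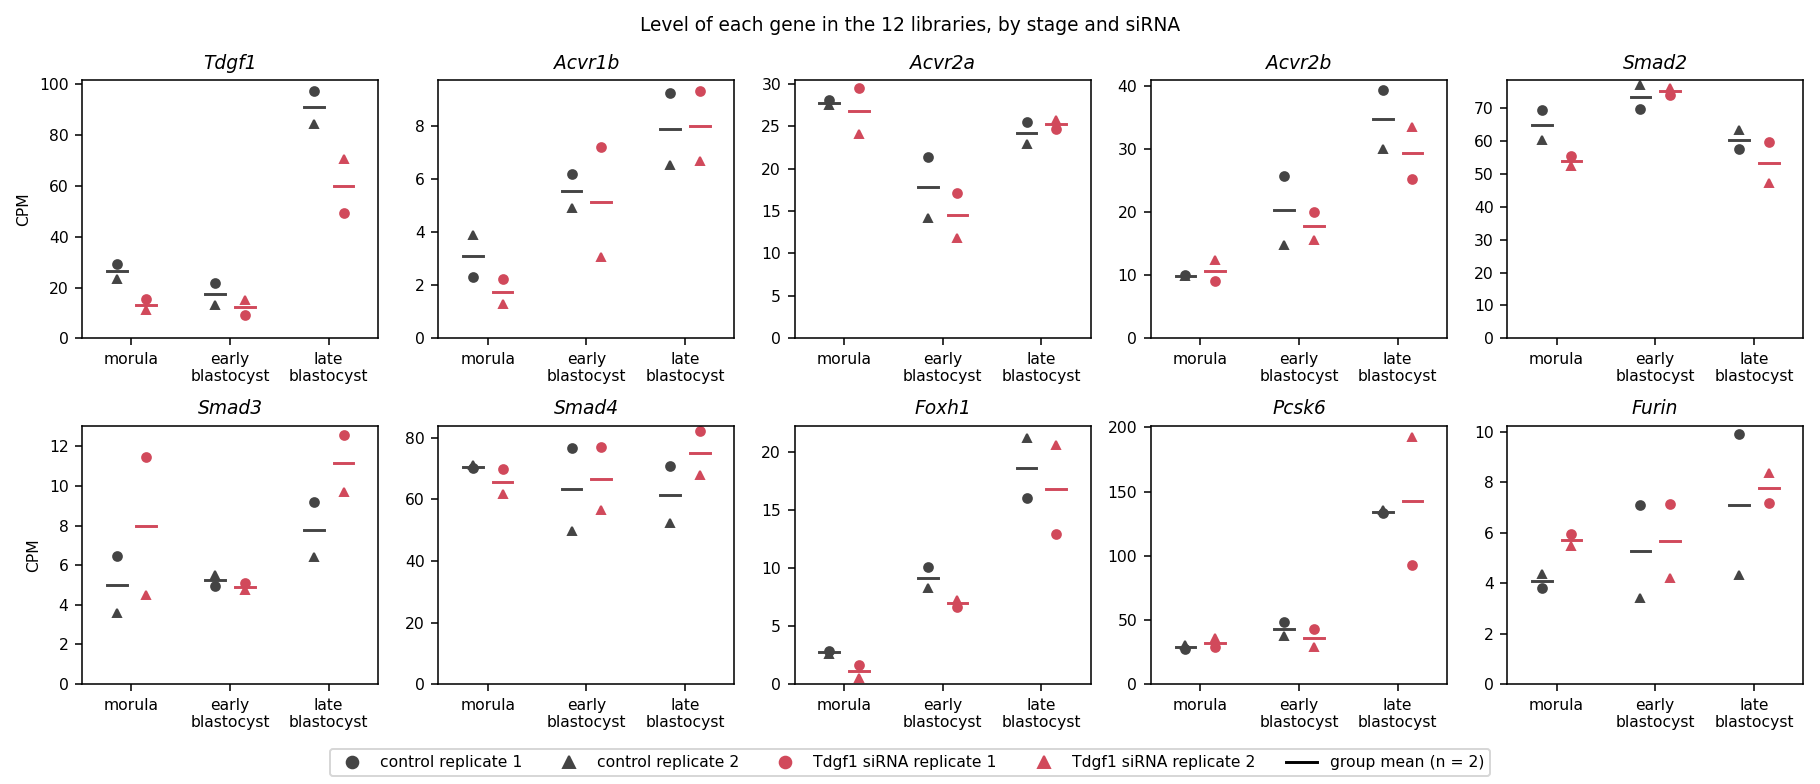
Level of each of the 10 genes in the 12 libraries, in CPM, by stage and siRNA arm. Circles and triangles are the libraries numbered 1 and 2, horizontal lines are group means of 2 libraries, and each vertical axis starts at 0. Tdgf1 and Pcsk6 stand at their highest in the 4 late blastocyst libraries, Foxh1 climbs at each step, and Smad4 stays between 49.8 and 82.1 CPM.

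Tdgf1, the GPI-anchored co-receptor and the target of the siRNA (chr9:110939603-110946158 in mm10, minus strand), was measured at 29.4 and 23.4 CPM in the morula control libraries and at 15.5 and 10.98 CPM after Tdgf1 siRNA. At early blastocyst it was at 21.7 and 13.1 CPM in controls and 9.27 and 15.2 CPM after siRNA. At late blastocyst it was at 97.3 and 84.6 CPM in controls and 49.5 and 70.8 CPM after siRNA. Each late blastocyst library was above all 8 earlier ones, while morula and early blastocyst libraries overlapped. Late blastocysts thus had 5.09 times the mean CPM of early blastocysts, a log2 difference of 2.11 (SE 0.19, limma adjusted p = 4.15e-06). Their mean was 3.81 times that of morulae (log2 difference 1.79, adjusted p = 3.56e-06). The step from morula to early blastocyst did not pass (log2 difference -0.32, SE 0.19, adjusted p = 0.223). The rise to the late blastocyst was of similar size in each arm: 2.20 in the control libraries alone (adjusted p = 0.000137) and 2.01 in the Tdgf1 siRNA libraries alone (adjusted p = 0.000358). The annotated processed pseudogene Tdgf1-ps1, to which some Tdgf1 reads could be assigned, was at 3.71 CPM at most. The Tdgf1 promoter is shown because this gene rose most from early to late blastocyst of the 10. It comprises the 250 bases before the RefSeq start site (GRCm38.p6, chr9:110946159-110946408, minus strand), with matches to the SMAD element CAGAC or its complement and to the GC box GGGCGG or its complement in capitals.
Tdgf1: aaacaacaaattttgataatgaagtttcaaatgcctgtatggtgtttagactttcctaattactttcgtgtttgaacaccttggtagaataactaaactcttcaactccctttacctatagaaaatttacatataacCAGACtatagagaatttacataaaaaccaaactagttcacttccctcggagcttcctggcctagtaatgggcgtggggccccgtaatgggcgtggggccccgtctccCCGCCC
Its GC content was 42.0% with 7 CG dinucleotides, against a median of 52.4% over 32536 promoter windows, 15.8% of which had a lower GC content. It held 1 CAGAC match, as at least 1 was found in 42.2% of the windows, and 1 GGGCGG match, as at least 1 was found in 33.0%. No match to the FOXH1 letters AATCCACA or AATACACA, found in 0.7% and 0.9% of windows, lay in these 250 bases, which says nothing about binding outside them.

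In the siRNA comparison, Tdgf1 RNA was lower in the siRNA library in 5 of the 6 same-numbered pairs. The exception was the pair of early blastocyst libraries numbered 2. The ratio of group means was 0.502 at morula, 0.704 at early blastocyst, 0.661 at late blastocyst, and the libraries of the arms did not overlap at morula and late blastocyst. Averaged over stages, the log2 difference was -0.61 (95% interval -0.95 to -0.27). An exact two-sided permutation test of the siRNA labels within stages gave p = 0.0185, with 216 assignments and a smallest possible p of 0.00926. Swapping labels only within the same-numbered pairs gave an exact permutation p of 0.0625, with 64 assignments and a smallest possible p of 0.0312, so that the difference did not pass 0.05 in the paired test. Leaving out each library in turn gave unpaired exact permutation p-values between 0.0185 and 0.0463. In the limma fit across all genes, the unadjusted p was 0.0089 at morula, 0.167 at early blastocyst, 0.0515 at late blastocyst and 0.00191 for the average, and none passed after adjustment (adjusted p = 1.0 in each). Without late blastocyst siRNA library 1, which stood apart, the average was -0.53 (unpaired exact permutation p = 0.0278). The targeted RNA was still measured in every siRNA library, at 113 to 802 reads.

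Pcsk6 (PACE4), a secreted convertase (chr7:65861734-66050386), was at 27.5 and 30.7 CPM in morula controls and 28.8 and 36.0 CPM in morulae after Tdgf1 siRNA. Early blastocysts had 48.2 and 37.6 CPM in controls and 43.0 and 28.7 CPM after siRNA. Late blastocysts had 133.1 and 135.6 CPM in controls and 93.1 and 192.7 CPM after siRNA. The 4 late blastocyst libraries were above all others, and the siRNA pair there enclosed the control pair. The rise from early to late blastocyst was 3.52-fold in mean CPM (log2 difference 1.70, SE 0.20, limma adjusted p = 2.56e-05), and from morula 4.51-fold (log2 difference 2.01, adjusted p = 1.65e-06). Before that, the log2 difference between early blastocyst and morula was 0.31 (adjusted p = 0.254). It was 0.63 in the libraries numbered 1 and -0.01 in those numbered 2. Furin, the ubiquitous Golgi convertase (chr7:80388585-80405436, minus strand), was far lower, between 3.41 and 9.90 CPM over the 12 libraries, and passed the test in no stage comparison. Its mean in late blastocysts was 1.52 times that in morulae, with overlapping libraries. Furin shares 118 exon bases with an annotated antisense gene, and reads of the 2 strands may not have been counted apart. Pcsk6 shares 156 exon bases with the annotated gene Gm45213 on the same strand, which is not among the deposited features. Reads from those bases cannot be told apart by strand.

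Acvr2a and Acvr2b, the 2 type II receptors that activins and Nodal share, moved in opposite directions from morula to early blastocyst. Acvr2a (chr2:48814109-48903269) was at 28.1 and 27.5 CPM in morula controls and 29.5 and 24.1 CPM after Tdgf1 siRNA. In early blastocysts it was at 21.4 and 14.2 CPM in controls and 17.2 and 11.9 CPM after siRNA, and in late blastocysts at 25.5 and 22.8 CPM and at 24.7 and 25.7 CPM. All 4 early blastocyst libraries were below every morula and late blastocyst library. Acvr2a fell by 0.66 on the log2 scale from morula to early blastocyst (SE 0.16, limma adjusted p = 0.00727) and rose by 0.54 from there to late blastocyst (adjusted p = 0.0166), which left late blastocysts at 0.904 times the morula mean. Acvr2a shares 446 exon bases with Orc4 on the opposite strand, which was at 104 to 147 CPM and so higher than Acvr2a in each library.

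Acvr2b (chr9:119402118-119434995) was at 9.99 and 9.88 CPM in morula controls and 9.06 and 12.4 CPM after siRNA. It was at 25.8 and 14.8 CPM, and 20.1 and 15.5 CPM, in the matching early blastocyst libraries, and at 39.4 and 30.1 CPM, and 25.2 and 33.5 CPM, in late blastocysts. Every early blastocyst library was above every morula library, and early and late blastocyst libraries overlapped. It rose at both steps, by 0.68 (SE 0.19, limma adjusted p = 0.0134) and 0.67 (adjusted p = 0.0113) on the log2 scale, to 3.11 times the morula mean. The promoters of both receptors are shown because the genes differ in direction at the first step. For Acvr2a these are the 250 bases before the RefSeq start (GRCm38.p6, chr2:48813859-48814108) and for Acvr2b the 190 bases of the window that lie outside exons (chr9:119401928-119402117), with capitals as for Tdgf1.
Acvr2a: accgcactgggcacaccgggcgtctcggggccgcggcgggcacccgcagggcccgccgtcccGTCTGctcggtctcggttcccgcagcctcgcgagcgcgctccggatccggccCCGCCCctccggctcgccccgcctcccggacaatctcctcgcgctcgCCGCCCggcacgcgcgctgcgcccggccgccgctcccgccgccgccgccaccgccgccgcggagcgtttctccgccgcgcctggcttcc
Acvr2b: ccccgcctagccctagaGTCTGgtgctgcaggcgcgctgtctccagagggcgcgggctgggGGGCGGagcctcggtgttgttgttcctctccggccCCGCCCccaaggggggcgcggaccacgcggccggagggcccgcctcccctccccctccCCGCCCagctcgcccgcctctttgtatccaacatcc
Both are rich in G and C (82.0% for Acvr2a and 74.7% for Acvr2b), unlike the Tdgf1 promoter. Acvr2a held 1 CAGAC match and 2 GC boxes, and Acvr2b held 1 CAGAC match and 3 GC boxes. In windows of 190 bases, CAGAC was found in 34.5% and the GC box in 23.0% of all promoters. None of the TATA box TATAAA (12.3% of windows of 250 bases), the CCAAT box (33.8%) or the FOXH1 letters was matched in the promoters of the 7 genes with an entry. Only bases outside exons were searched, which left 36 bases for Pcsk6 and none for 1 of 2 Furin starts.

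Acvr1b (ALK4), the type I receptor kinase for Nodal and activin (chr15:101174067-101213684), was a low transcript. It was at 2.33 and 3.90 CPM in morula controls and 2.24 and 1.28 CPM after Tdgf1 siRNA. Early blastocysts had 6.20 and 4.94 CPM in controls and 7.22 and 3.06 CPM after siRNA, and late blastocysts had 9.26 and 6.56 CPM and 9.34 and 6.71 CPM. Late blastocyst libraries did not overlap with morula libraries, while neighbouring stages did. It rose 3.27-fold in mean CPM from morula to late blastocyst (log2 difference 0.95, limma adjusted p = 0.00083). The log2 difference between early blastocyst and morula was 0.56 (adjusted p = 0.0388), and that between late and early blastocyst 0.38 (adjusted p = 0.126).

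Smad2 and Smad4 were the steadiest of the 10 genes. Smad2, one of the receptor-activated Smads, was at 69.6 and 60.4 CPM in morula controls and 55.5 and 52.4 CPM after siRNA. It was at 69.9 and 77.1 CPM, and 74.1 and 76.2 CPM, in early blastocysts, and at 57.5 and 63.5 CPM, and 59.6 and 47.1 CPM, in late blastocysts. The 4 early blastocyst libraries were the highest of the 12, though the lowest of them and the highest morula library differed by less than 1 CPM. Smad2 fell by 0.37 on the log2 scale from early to late blastocyst (SE 0.12, limma adjusted p = 0.022), to 0.766 times the mean, and the preceding difference of 0.31 did not pass (adjusted p = 0.0588). Smad4, the Smad shared with BMP signalling, lay between 49.8 and 82.1 CPM in all libraries and passed in no comparison, with stage means of 68.2, 64.9 and 68.2 CPM.

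Smad3 (chr9:63646767-63757994, minus strand), the other receptor-activated Smad of this branch, had fewer reads than Smad2 in every library. Controls had 6.44 and 3.61 CPM at morula, 4.96 and 5.52 CPM at early blastocyst and 9.17 and 6.40 CPM at late blastocyst. After Tdgf1 siRNA the values were 11.5 and 4.49 CPM, 5.09 and 4.75 CPM, and 12.6 and 9.71 CPM. Late blastocyst libraries were above all early blastocyst ones, while the morula libraries spread over the range of both. The rise of 0.57 on the log2 scale from early to late blastocyst (SE 0.21) passed with a limma adjusted p of 0.0401. With TMM scaling it was 0.0628, with edgeR 0.0714 and with DESeq2 0.0552, so the call rests on the scaling and test used.

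Foxh1, the forkhead protein that brings Smad complexes to DNA (chr15:76668225-76669948, minus strand), rose at every step. It was at 2.89 and 2.57 CPM in morula controls and 1.64 and 0.549 CPM after siRNA, the last of these being 6 reads. Early blastocysts had 10.1 and 8.28 CPM in controls and 6.65 and 7.27 CPM after siRNA, and late blastocysts had 16.0 and 21.2 CPM and 12.9 and 20.7 CPM. No library of one stage overlapped with another stage. The mean CPM rose 4.22-fold to early blastocyst (log2 difference 1.10, SE 0.18, limma adjusted p = 0.000546) and 2.19-fold from there to late blastocyst (log2 difference 0.86, adjusted p = 0.00169). Over both steps it rose 9.26-fold (log2 difference 1.96, adjusted p = 7.76e-07).

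**Figure D2:**
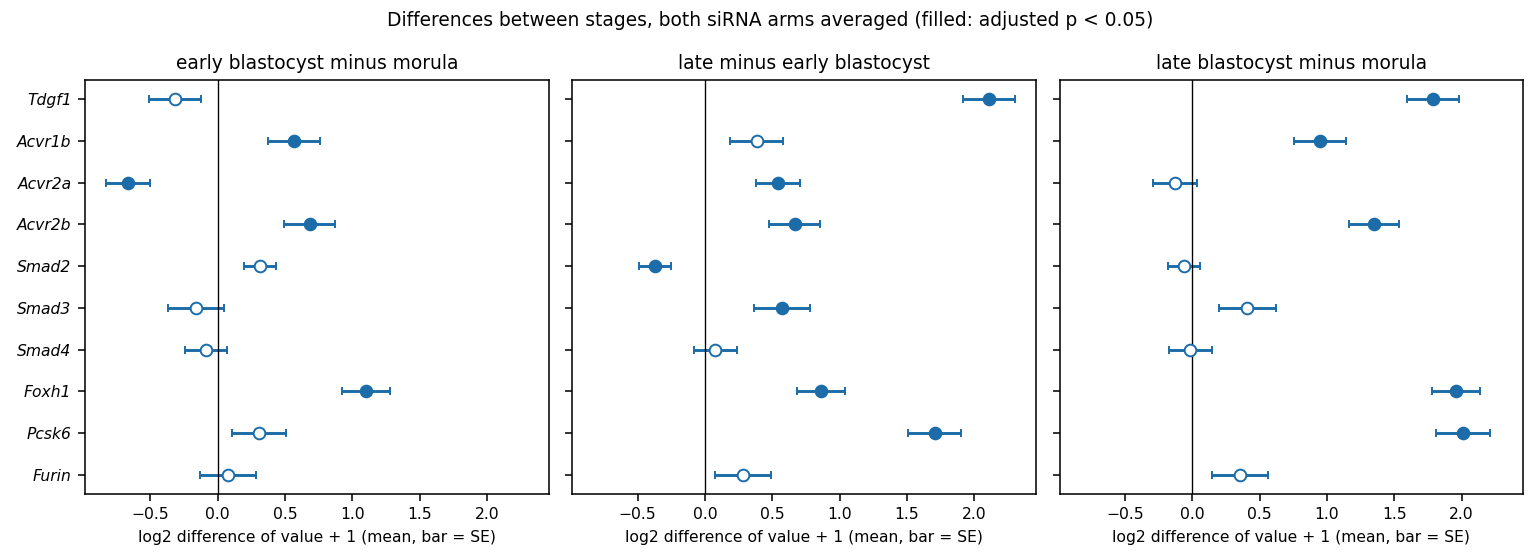
Log2 difference between stages for each of the 10 genes, averaged over both siRNA arms. Points are limma estimates on log2(value + 1), bars are 1 standard error, and filled points passed the adjusted threshold of 0.05. Acvr2a and Acvr2b lie on opposite sides of 0 in the first panel (-0.66 and 0.68), and in the last panel the 3 Smads are open points.

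The calls of Tdgf1, Pcsk6 and Foxh1 between early and late blastocyst held when both early blastocyst libraries numbered 2 were left out (adjusted p = 2.6e-05, 0.000671 and 0.0156). Those of Acvr2b (log2 difference 0.42, adjusted p = 0.123), Acvr2a (0.31, adjusted p = 0.171), Smad2 (-0.33, adjusted p = 0.106) and Smad3 (0.58, adjusted p = 0.121) were lost, as was the fall of Acvr2a from morula (-0.44, adjusted p = 0.0589). Single libraries also ended calls. For Acvr2a, Acvr2b and Smad2 between early and late blastocyst these were the early blastocyst control 2, late blastocyst control 1 and late blastocyst siRNA 2, with log2 differences of 0.42 to 0.53, 0.50 to 0.58 and -0.34 to -0.29. Leaving out the early blastocyst siRNA 2 library also ended those of Acvr2a (0.43) and Smad2 (-0.36). The Smad3 call was lost without any of 7 of the 8 libraries (0.48 to 0.64), the exception being late blastocyst control 2. Calls were also gained: Acvr1b between early and late blastocyst without early blastocyst siRNA 1 (0.56, adjusted p = 0.034), and, from morula to late blastocyst, Smad3 without morula siRNA 1 (0.64, adjusted p = 0.0152) and Furin without late blastocyst control 2 (0.55, adjusted p = 0.0429). Of the earlier step, Acvr1b was lost without morula control 1, either morula siRNA library, early blastocyst control 1 or early blastocyst siRNA 1 (0.39 to 0.63), and with no filter on low values. Acvr2b at that step was lost without morula siRNA 1 or early blastocyst control 1 (0.60 and 0.51), and with no filter.

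Per kilobase of exon, which allows levels of different genes to be compared, the order of the 10 genes changed with stage. In morulae Smad4 was highest, at 18.4 ± 1.18 CPM per kb (SD, n = 4), and its libraries lay above those of every other gene. Tdgf1 (7.56 ± 3.12), Smad2 (6.77 ± 0.858), Pcsk6 (5.93 ± 0.715) and Acvr2a (4.80 ± 0.405 CPM per kb) followed. Of these, Tdgf1, with the widest spread (4.19 to 11.2), overlapped with each of the others, Smad2 with Pcsk6, and Pcsk6 (5.30 at least) not with Acvr2a (5.19 at most). Acvr2b was at 2.63 CPM per kb, Foxh1 at 1.40 and Smad3 at 1.17, and Acvr1b (0.552) and Furin (0.535 CPM per kb) were lowest and overlapped. In early blastocysts Smad4 was still highest (17.5 ± 3.74 CPM per kb), then Smad2 (8.46) and Pcsk6 (7.59), with Foxh1 (5.91) now beside Tdgf1 (5.66). In late blastocysts Tdgf1 (28.8 ± 7.80) and Pcsk6 (26.7 ± 7.90) came first, with overlapping libraries, and both also overlapped with Smad4 (18.4 ± 3.30 CPM per kb). Foxh1 was at 13 CPM per kb, Acvr2b at 8.16, Smad2 at 6.48 and Acvr2a at 4.34. Acvr1b (1.80) and Smad3 (1.71) overlapped, and Furin (0.811 CPM per kb) stood below them. These ranks use 1 exon length per gene, the union of its exons in GENCODE release M21.

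Within pairs of related genes the balance shifted at different steps. Of the summed Acvr2a and Acvr2b reads per exon length, Acvr2b made up 34.0%, 34.3%, 30.8% and 42.6% in the 4 morula libraries, a mean of 35.4% ± 5.07 (SD, n = 4). Its share was 63.0% ± 2.22 in early blastocysts and 64.9% ± 3.92 in late blastocysts. The morula libraries did not overlap with the later ones, and early and late blastocysts did overlap. Smad3 made up 14.5% ± 7.01 of Smad2 plus Smad3 in morulae, where the siRNA library numbered 1 reached 24.7% and the other 3 stayed at 8.65% to 12.8%. Its share was 9.77% ± 0.556 in early and 20.9% ± 5.23 in late blastocysts, without overlap between these stages. Pcsk6 made up 91.7% ± 1.48, 92.8% ± 1.61 and 96.9% ± 1.19 of Pcsk6 plus Furin, and each late blastocyst library (95.8% to 98.2%) was above the highest earlier one (95.1%). These shares were not tested.

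**Figure D3:**
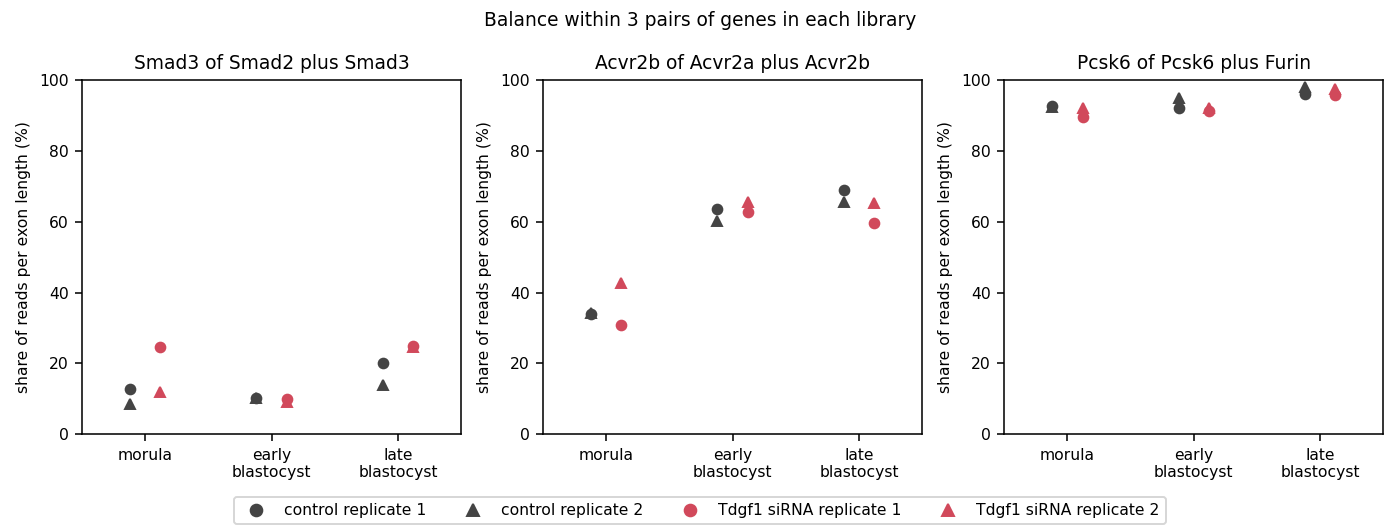
Share of reads per exon length within 3 pairs of genes in each library, in percent, by stage and siRNA arm. Each symbol is 1 library. The Acvr2b share lies at 30.8% to 42.6% in morulae and at 59.6% to 69.1% in both blastocyst stages, and the Smad3 share is highest in 3 of the 4 late blastocyst libraries and 1 morula library.

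Between siRNA and control libraries, none of the other 9 genes passed the test. Foxh1 was the one gene of the 10 lower in the siRNA library in 6 of 6 same-numbered pairs, as were 1.79% of all genes tested, with ratios of group means of 0.401, 0.758 and 0.901 from the first stage to the last. Its average log2 difference was -0.29 (95% interval -0.60 to 0.03). Smad3 and Furin were each lower in 1 of 6 pairs, with average differences of 0.23 (95% interval -0.13 to 0.60) and 0.16 (-0.20 to 0.53). For Acvr1b, Acvr2a, Acvr2b, Smad2, Smad4 and Pcsk6 the averages lay between -0.14 and 0.09, and none of their 95% intervals reached beyond -0.48 or 0.37.

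None of the 10 genes passed in any of the 4 siRNA comparisons (each stage and the average of stages), and 0% of the 10751 genes tested passed in each with limma. At an unadjusted limma p under 0.05 there were 194, 112, 221 and 268 genes in these comparisons. Each count is below a share of 0.05 of the genes tested, the share expected without any difference. That fit took no account of the same-numbered pairs, whose correlations were 0.458, 0.593 and 0.101 at the 3 stages. With edgeR and DESeq2 none was called except 1 gene at late blastocyst with DESeq2. In a fit with the same-numbered pairs as a block, limma called 5, 5, 3 and 0 genes, none of them among the 10. In the fit with the block 663, 491, 697 and 916 genes had an unadjusted limma p under 0.05. At morula, at late blastocyst and for the average these counts are above a share of 0.05, and at early blastocyst below it. Without a filter on low values limma called 11 genes at late blastocyst, also none of the 10. Whether the siRNA effect differed between stages was tested with an F test, which none of the 10 passed (unadjusted p from 0.484 to 0.888) and 0% of all genes passed. The libraries of the arms did not overlap for 6 of the 10 genes at morula (27.5% of all genes), lower after siRNA for Tdgf1, Acvr1b, Smad2, Smad4 and Foxh1 and higher for Furin. At early blastocyst this held for 1 (Foxh1, lower; 19.4% of all genes) and at late blastocyst for 2 (Tdgf1 lower and Smad3 higher; 31.9% of all genes).

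**Figure D4:**
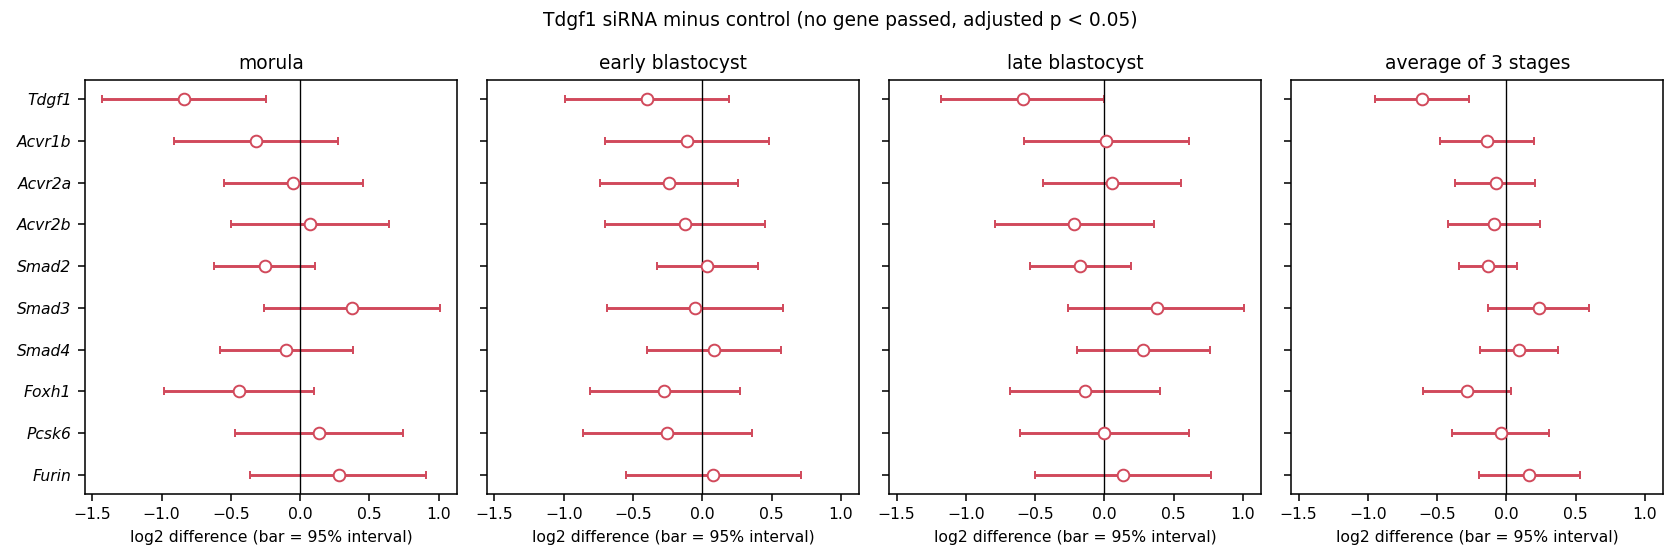
Log2 difference between Tdgf1 siRNA and control libraries for each of the 10 genes at each stage and averaged over the 3 stages. Points are limma estimates on log2(value + 1) and bars are 95% intervals. The average for Tdgf1 (-0.61) has an interval that lies below 0, while those of the other 9 genes include 0.

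The other genes of the pathway were low on the side of the ligands. Nodal was at 0 to 0.153 CPM (2 reads at most) in the 8 morula and early blastocyst libraries. In late blastocysts it was at 0.917 and 0.463 CPM in controls and 1.05 and 1.94 CPM after Tdgf1 siRNA, from 6 to 22 reads. Gdf1 was at 0 in all 12 libraries, which allows up to 0.285 CPM if its reads could be counted. It overlaps Cers1 on the same strand, so its reads may not have been assigned to it. The activin subunit gene Inhba had 1 read in 1 library. Inhbb, another activin subunit gene, reached 2.01 CPM (22 reads) in morula siRNA library 2 and 1.59 CPM (18 reads) in late blastocyst siRNA library 2, and was at 0.642 CPM or less elsewhere. Gdf3, a ligand that also uses Cripto, was the one well-measured ligand of the list, at 18.4 to 46.5 CPM, and passed in no stage comparison (stage means 27.2, 32.9 and 30.7 CPM). The Nodal antagonist Lefty1 was at 2.21 CPM at most. Lefty2 was at 2.93 and 1.31 CPM in late blastocyst controls, 0 in siRNA library 1 and 11.7 CPM (133 reads) in siRNA library 2. The type I receptor Acvr1c (ALK7) was at 0.642 CPM at most.

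Cfc1 (Cryptic), the relative of Tdgf1, rose at both steps. It was at 0.653 and 0.665 CPM in morula controls and 1.55 and 1.46 CPM after Tdgf1 siRNA. It was at 9.18 and 3.05 CPM, and 8.53 and 3.29 CPM, in early blastocysts, and at 21.8 and 23.5 CPM, and 18.7 and 32.9 CPM, in late blastocysts. Stages did not overlap, and both early blastocyst libraries numbered 2 were lower than those numbered 1. The log2 differences were 0.98 (limma adjusted p = 0.00754) and 1.58 (adjusted p = 0.000206). Of the 13 genes in the list of ligands and co-receptors only Cfc1 and Gdf3 had enough reads to be tested.

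**Figure D5:**
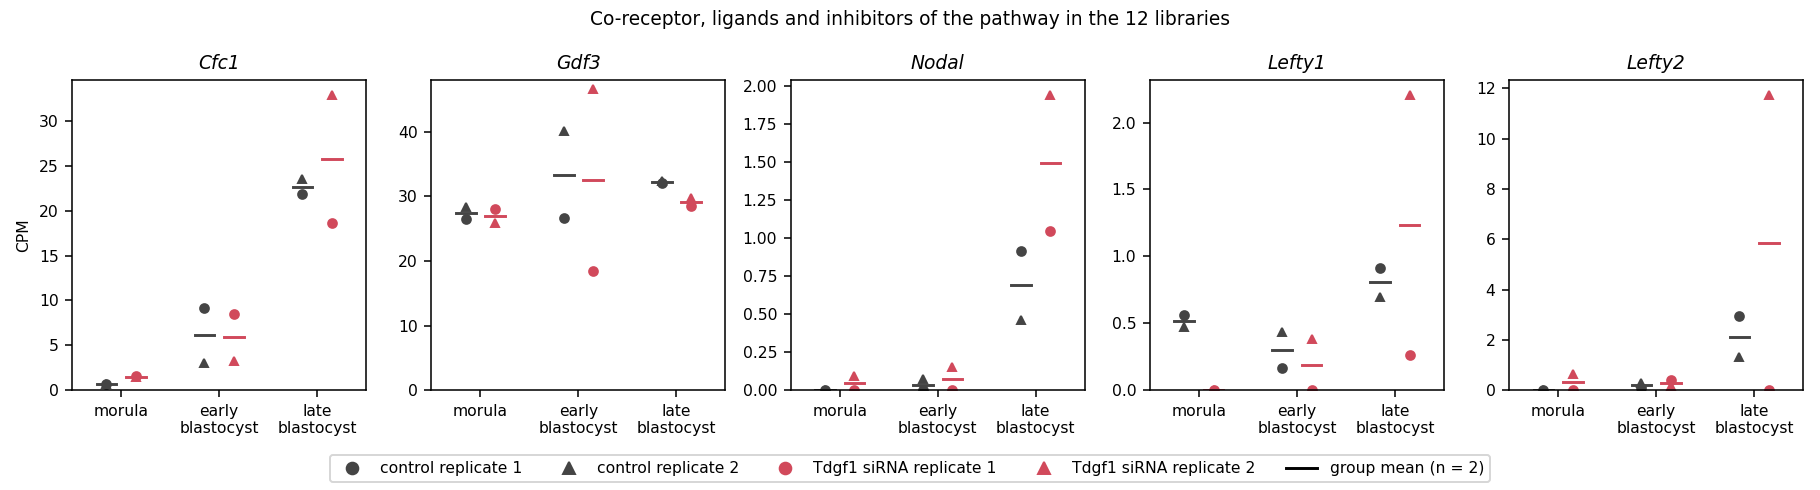
Level of the co-receptor Cfc1, the ligands Gdf3 and Nodal and the antagonists Lefty1 and Lefty2 in the 12 libraries, in CPM, by stage and siRNA arm. Symbols are libraries, lines are group means of 2 libraries, and axes differ between panels. Cfc1 reaches 18.7 to 32.9 CPM in late blastocysts while Nodal does not exceed 1.94 CPM.

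Intracellular regulators of the pathway moved in both directions. Of 23 listed, 21 were tested, and from morula to late blastocyst 5 rose and 7 fell, beside 36.6% and 24.3% of all genes tested, with a median log2 difference of -0.17 beside 0.13. Those that rose included Pmepa1, which keeps Smad2 and Smad3 from the receptor (5 ± 2.34 to 25.6 ± 3.27 CPM, SD, n = 4), Skil, a Smad corepressor (15.6 ± 2.33 to 39.6 ± 6.04 CPM), the ubiquitin ligase gene Smurf1 (10.7 ± 2.71 to 32.8 ± 5.04 CPM) and the corepressor Tgif1 (36.6 ± 4.03 to 79.2 ± 5.57 CPM). Those that fell included the Smad phosphatase gene Ppm1a (418 ± 68.3 to 90.1 ± 9.73 CPM), Tgif2 (35.2 ± 8 to 15.6 ± 0.989 CPM), Ski (64.2 ± 3.63 to 42.0 ± 4.36 CPM) and Trim33 (166 ± 12 to 104 ± 7.64 CPM). Pmepa1 and Skil are known targets of the pathway as well as regulators.

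Of 17 extracellular inhibitors and membrane regulators, 9 were tested, of which 4 rose and 2 fell from morula to late blastocyst (36.6% and 24.3% of all genes). Flrt3 rose from 0.117 and 0 CPM in morulae and early blastocysts to 19.4 ± 7.70 CPM (SD, n = 4), and the Nodal antagonist Dand5 from 3.07 to 7.02 CPM. The pseudoreceptor Bambi (13 to 7.24 CPM) and the follistatin relative Fstl3 (56.1 to 27.5 CPM) fell. Of 20 partners and targets, 11 were tested, of which 3 rose and 7 fell (36.6% and 24.3% of all genes). Eomes, a target of the pathway that is also a trophectoderm gene, rose from 7.33 ± 4.35 to 191 ± 23.2 CPM, while Nanog fell from 400 ± 117 to 94.2 ± 15.3 CPM, Otx2 from 7.61 to 2.72 CPM and Gsc from 10.9 to 5.13 CPM.

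The receptors and Smads of the BMP and TGF-beta branches, which share Smad4 with the genes above, gave another comparison. Of 13, 7 were tested, of which 2 rose (Bmpr1a and Smad1) and 1 fell (Amhr2) from morula to late blastocyst, beside 36.6% and 24.3% of all genes, with a median log2 difference of 0.34 beside 0.68 for the 10 genes. Bmpr1a, a type I BMP receptor, went from 70.3 ± 8.30 to 126 ± 6.63 CPM (SD, n = 4) and Smad1 from 4.09 ± 1.77 to 7.80 ± 1.21 CPM. As with Acvr2a, the type II receptor Bmpr2 and the type I receptor Tgfbr1 fell from morula to early blastocyst (log2 differences -0.68 and -0.54, limma adjusted p = 0.00422 and 0.0204). From early to late blastocyst 4 of the 7 rose (Bmpr1a, Eng, Smad1 and Tgfbr1; 27% of all genes) and 1 fell (Amhr2; 17.7% of all genes). The median log2 difference of that step was 0.47, beside 0.55 for the 10 genes. The difference between the lists was not tested.

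Markers of the cell types of the blastocyst moved with stage beside the 10 genes, and their part in the stage differences was not tested. The summed level of 11 trophectoderm markers ranged over 667 to 984 CPM in morulae, 2024 to 4564 CPM in early and 7538 to 10410 CPM in late blastocysts. That of 11 primitive endoderm markers ranged over 1069 to 1248, 1177 to 1605 and 2310 to 2396 CPM, and that of 10 epiblast markers over 786 to 1101, 971 to 1074 and 593 to 686 CPM. Of the trophectoderm markers 9 of 11 rose and 2 fell (Tead4 and Tfap2c) from morula to late blastocyst, and of the 9 primitive endoderm markers tested 8 rose and 1 fell (Gata6). Over all genes tested the shares were 36.6% and 24.3%. At late blastocyst the arms also lay apart: the trophectoderm sum was 7538 to 9042 CPM after siRNA and 9370 to 10410 CPM in controls, and the epiblast sum 675.5 to 686 CPM after siRNA and 593.4 to 601.7 CPM in controls. At early blastocyst the epiblast sum was 1062 to 1074 CPM after siRNA and 970.6 to 976.5 CPM in controls. At morula the primitive endoderm sum was 1226 to 1248 CPM after siRNA and 1069 to 1198 CPM in controls. Of single genes tested, 27.5%, 19.4% and 31.9% likewise had arms without overlap at morula, early and late blastocyst. The arms did overlap in the epiblast sum at morula, the trophectoderm sum at morula and early blastocyst, and the primitive endoderm sum at early blastocyst. In the primitive endoderm sum at late blastocyst they met at 2371 CPM. The part of these markers in the siRNA differences of the 10 genes was not tested. From morula to late blastocyst 4 of the 10 epiblast markers rose (Bmp4, Sox2, Spp1 and Utf1) and 4 fell (Esrrb, Klf2, Nanog and Pou5f1). Of all genes tested 36.6% rose and 24.3% fell. Markers of cumulus and granulosa cells, which surround the egg, summed to 23.3 to 99.9 CPM. Of these markers Fshr, Amh and Foxl2 were at 0.165 CPM or less, while Amhr2 had stage means of 17.6, 17.0 and 5.13 CPM and Star reached 2.62 CPM. Serpine2 was at 18.4 ± 5.15 CPM in morulae, and most of the sum in late blastocysts was Serpine2 (85.5 ± 10.3 CPM). In the list for blood and reproductive tract (229 to 1641 CPM), most was Epcam, which embryonic epithelia also make. Of the others in that list Cd74 reached 39.1 CPM, with stage means of 11.6, 21.4 and 3.98 CPM and a fall from early to late blastocyst, Pecam1 was at 11.2 to 20.3 CPM, and the leukocyte gene Ptprc at 1.01 CPM or less.

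The genes whose profile over the 12 libraries was most like that of Tdgf1 were searched among 10750 genes by the root-mean-square difference of log2(value + 1), each profile centred on its mean. The nearest were Serpinh1 (0.308), Srgn (0.347), Emb (0.348), Pth1r (0.349), Slc6a14 (0.381) and Gyltl1b (0.382). Slc6a14 and Gyltl1b had levels in the range of Tdgf1, with stage means of 34.9, 28.5 and 114 CPM and of 10.4, 9.69 and 55.7 CPM. The other 4 were at 14.0 CPM or less in each stage mean, where this scale understates change. From early to late blastocyst their means went from 0.68 to 12.35 (Serpinh1), 1.0 to 12.94 (Srgn), 2.19 to 13.93 (Emb) and 0.96 to 11.28 CPM (Pth1r). Each is a larger fold change than that of Tdgf1 (14.83 to 75.54 CPM). Of the 9 other pathway genes Pcsk6 came nearest, at rank 136 with a difference of 0.518, then Foxh1 at rank 784 and Acvr2b at rank 1083. Smad2 was farthest, at rank 7267. All of these profiles share the same libraries and are given as a description.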

How the data were processed

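RNA-seq was measured in 12 libraries of whole CD1 mouse embryos, 2 for each of 3 stages and 2 siRNA arms, made per the labels' protocols with the SMARTer Ultra Low Input and NEBNext Ultra DNA kits; strand is not stated. The submitters' processing notes name HISAT2 2.1.0, Cufflinks, HTSeq, edgeR and mm10 without saying what each was used for. The authors deposited 1 table headed RPKM per the file headers, but its values have the form of CPM: in each column all values (100%) were whole multiples of 1 step within a tolerance of 0.01, and each column summed to 279173.646, so the deposited values are CPM divided by 3.582, a divisor that no source used here explains. The design had assumed values per length; as they are not, the planned test on the log scale was kept and levels compared between genes were divided by exon length (GENCODE M21). Reads were recovered from the steps for edgeR 4.0.16 and DESeq2 1.42.0, which, like limma, estimated the spread among libraries. All 37 mitochondrial features are listed at 0.

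limma 3.58.1 (lmFit, eBayes with trend, R 4.3.3) was fitted to log2(value + 1) with 6 group means (6 residual degrees of freedom), over 10751 genes with a mean of at least 1 in the deposited unit. Alternatives were a pseudocount of 0.1, no filter, TMM scaling, edgeR, DESeq2, a replicate block, each arm alone and leaving out each library; a block by number across stages and leaving out both early blastocyst libraries numbered 2 were added after seeing the data. A permutation of Tdgf1 within pairs was added likewise. For each arm alone only the contrast changed, and the fit and its spread still used all 12 libraries. Scripts were tested on simulated data. The labels number the libraries within each group. Over genes, the deviations of same-numbered libraries of both arms from their own group mean had correlations of 0.458, 0.593 and 0.101 at the 3 stages. Controls of neighbouring stages, which were not taken as pairs, had 0.006 and 0.138. The numbers were taken as pairs within a stage, though at late blastocyst the correlation does not bear this out. The members and lists were chosen with earlier results of these data known. Named are all 10 genes, listed pathway genes that passed, 9 ligands, co-receptors and receptors whatever their values, and the 6 profiles nearest to Tdgf1. Promoter sequences are from RefSeq (GRCm38.p6), which held entries for 7 of the 10 genes, cut to bases outside exons; motifs were searched on both strands.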

Additional observations from a re-analysis of the deposited data

How the results depend on the processing

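The step of Tdgf1 between early and late blastocyst kept its direction and its call under every alternative run, with log2 differences from 1.96 to 2.34, as did that of Pcsk6 (1.45 to 1.96) and both steps of Foxh1 (1.01 to 2.15 and 0.72 to 1.09). The siRNA differences of Tdgf1 stayed negative without each library: -1.03 to -0.64 at morula, -0.98 to -0.10 at early blastocyst, -0.83 to -0.34 at late blastocyst and -0.80 to -0.51 for the average, with limma adjusted p-values of 0.516 to 1.0. The other alternatives gave the average an adjusted p of 0.185 to 1.0. With the replicate block the differences of Tdgf1 were -0.84, -0.40, -0.59 and -0.61 (limma adjusted p = 0.557, 0.998, 0.698 and 0.185), and the block changed no limma call among the 10 genes; the exact test of the Tdgf1 average (-0.61; -0.71 to -0.51 without each library) went from p = 0.0185 to p = 0.0625 when labels were swapped within pairs, an alternative added after seeing the data; a block by number across stages changed none of the stage calls either.

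The number of the 10 genes called between morula and early blastocyst was 4; it was 2 with the Tdgf1 siRNA libraries alone and with no filter, 1 with the control libraries alone, and 2 to 4 without each library. Between early and late blastocyst it was 7; it was 4 with the siRNA libraries alone, 3 with the control libraries alone, and 3 to 7 without single libraries or both early blastocyst libraries numbered 2. With 1 arm alone fewer libraries enter each difference, while the spread is still estimated from all 12 libraries. The cause of these changes in number was not tested.

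Values that changed sign were all of differences that passed no test. Acvr1b at late blastocyst, siRNA against control, was -0.01 with DESeq2, and Pcsk6 there was 0.07 with edgeR and 0.06 with DESeq2. Smad4 between early and late blastocyst was -0.01 with TMM, -0.02 with edgeR, with DESeq2 and with controls alone; with the siRNA libraries alone it was 0.00 at the first step and 0.18 from morula to late blastocyst. Smad3 at the first step was 0.05 with controls alone and Furin -0.03 with the siRNA libraries alone. Without single libraries, or both early blastocyst libraries numbered 2, the ranges that crossed 0 in the siRNA comparison were, at morula, -0.18 to 0.08 (Acvr2a), -0.10 to 0.24 (Acvr2b), -0.07 to 0.83 (Smad3) and -0.01 to 0.28 (Pcsk6). At early blastocyst they were -0.46 to 0.24 (Acvr1b), -0.48 to 0.01 (Acvr2a), -0.47 to 0.21 (Acvr2b), -0.03 to 0.10 (Smad2), -0.10 to 0.02 (Smad3), -0.21 to 0.38 (Smad4), -0.52 to 0.01 (Pcsk6) and -0.23 to 0.39 (Furin). At late blastocyst they were -0.16 to 0.19 (Acvr1b), -0.01 to 0.12 (Acvr2a), -0.42 to 0.14 (Foxh1), -0.51 to 0.51 (Pcsk6) and -0.25 to 0.52 (Furin). For the average they were -0.16 to 0.00 (Acvr2a), -0.20 to 0.02 (Acvr2b), -0.01 to 0.19 (Smad4) and -0.21 to 0.13 (Pcsk6). Between stages they were -0.39 to 0.06 (Smad3), -0.23 to 0.16 (Smad4) and -0.08 to 0.23 (Furin; 0.34 without both) at the first step, -0.18 to 0.22 (Smad4) at the second, and -0.14 to 0.02 (Smad2) and -0.12 to 0.09 (Smad4) over both.

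Over all genes, the share of calls that were higher was 58.3%, 60.4% and 60.0% in the 3 stage comparisons and 52.8%, 51.7% and 51.3% with TMM (54.6%, 50.3% and 51.1% with edgeR; 52.6%, 50.4% and 50.3% with DESeq2). From raw reads not scaled by length, Acvr2b made up 27.5%, 54.1% and 56.2%, Smad3 9.78%, 6.40% and 14.4%, and Pcsk6 86.2%, 87.9% and 94.7% of their pairs. With 2 libraries a group, 95% intervals of a single siRNA difference spanned about 1 log2 unit, and at 6 to 60 reads counting error adds to the spread.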
